A study of Mus musculus with 6 samples.

Results

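DNA replication and mitosis genes were followed in HK-2 cells, a line of human proximal tubular epithelial cells, after overexpression of USAG-1. The set held 47 genes of the 39234 genes in the count table. It was chosen by name from well-known genes of the cell cycle, not by a threshold on any measured value. Earlier results of these data were known when it was chosen. The set was split into 22 S-phase genes and 25 G2/M genes, which are described apart. All 47 were found in the table and passed the filter on low counts, with between 420 and 48264 counts in a library, so that counting depth limited few of the values below.

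The study asked how USAG-1, the secreted BMP and Wnt antagonist encoded by SOSTDC1, acts on kidney tubular cells, and its messenger RNA sequencing compared 3 libraries of control HK-2 cells with 3 libraries of HK-2 cells overexpressing USAG-1. All 6 libraries carry the genotype WT in the labels, with no time, dose or hypoxia treatment named. According to the study's methods, overexpression in HK-2 cells came from a transiently transfected plasmid, so that the cells are a mixed population and not a selected clone. The labels name the organism as mouse, whereas the cell line, the gene identifiers and the genome build (hg38) are human. Nothing in the labels says that the replicates were separate cultures, and the p-values below measure the spread between these libraries, which may be technical.

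A dividing cell copies its DNA in S phase and separates the copies in mitosis. Before S phase, the MCM2 to MCM7 helicase is loaded onto origins by CDC6 and CDT1, and E2F transcription factors, held in check by the retinoblastoma protein until cyclin-dependent kinases release them, drive genes for replication enzymes and nucleotide supply. Later, the MuvB complex together with B-MYB (MYBL2) and FOXM1 turns on the genes of G2 and mitosis, among them cyclin B, CDK1 and the spindle checkpoint. In the kidney most tubular cells rest outside the cell cycle and re-enter it after injury. HK-2 cells divide continuously because they carry the papillomavirus E6 and E7 genes, whose products remove p53 and the retinoblastoma protein from control of the cycle.

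SOSTDC1 itself was read at 1.89, 1.62 and 1.41 counts per 1000000 counts (CPM, on the TMM scale that corrects for library composition) in control replicates 1, 2 and 3 and at 110, 89.4 and 103 CPM in the overexpressing replicates. The level in every overexpressing library was thus far above that in every control library, with a log2 fold change of 5.94 (SE 0.13, n = 3 against 3; edgeR quasi-likelihood test, Benjamini-Hochberg adjusted p = 6.96e-07). The libraries held 41236194 to 48699471 counts. Control replicate 3 stood apart from the others: the chi-square per degree of freedom over all genes was 42.3 and 42.7 against control replicates 1 and 2, whereas it lay between 6.52 and 8.35 for every other pair within a group. Each count of changed members below is therefore also given without control replicate 3. Of 13 epithelial markers tested, 3 were higher and 1 lower, beside 8.95% of all genes tested higher and 6.91% lower. KRT8, KRT18 and PAX8 were present, LRP2 had no count in any library, and CUBN, AQP1, SLC34A1 and PAX2 averaged under 0.5 CPM. In the overexpressing libraries 18 of 20 T and NK cell markers were lower, beside 6.91% of all genes tested. Their summed level was 126 to 146 CPM in control and 32.5 to 42.3 CPM in overexpressing libraries, with no marker at 0 in all libraries. Mitochondrially encoded genes took 1.5 to 1.55% of counts in overexpressing libraries against 4.80 to 5.59% in control. The part of these differences in the results below was not tested. A lower value per library cannot tell fewer cells in a phase from less RNA per cell.

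Neither phase moved as a whole. Of the 22 S-phase genes, 2 passed an adjusted p of 0.05, E2F1 upward and MCM7 downward. Of the 25 G2/M genes, 9 passed, with FOXM1, BUB1 and ANLN higher and UBE2C, CCNB2, BIRC5, CDK1, CCNB1 and CCNA2 lower in the overexpressing cells. Over all 18188 genes tested, 15.9% passed, 8.95% upward and 6.91% downward. The median log2 fold change was 0.00 for the S-phase genes and 0.02 for the G2/M genes, beside -0.02 for all genes tested. Control and overexpressing libraries had separate ranges for 9 S-phase and 11 G2/M genes, and for 37.6% of the genes tested in the whole table.

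**Figure D1:**
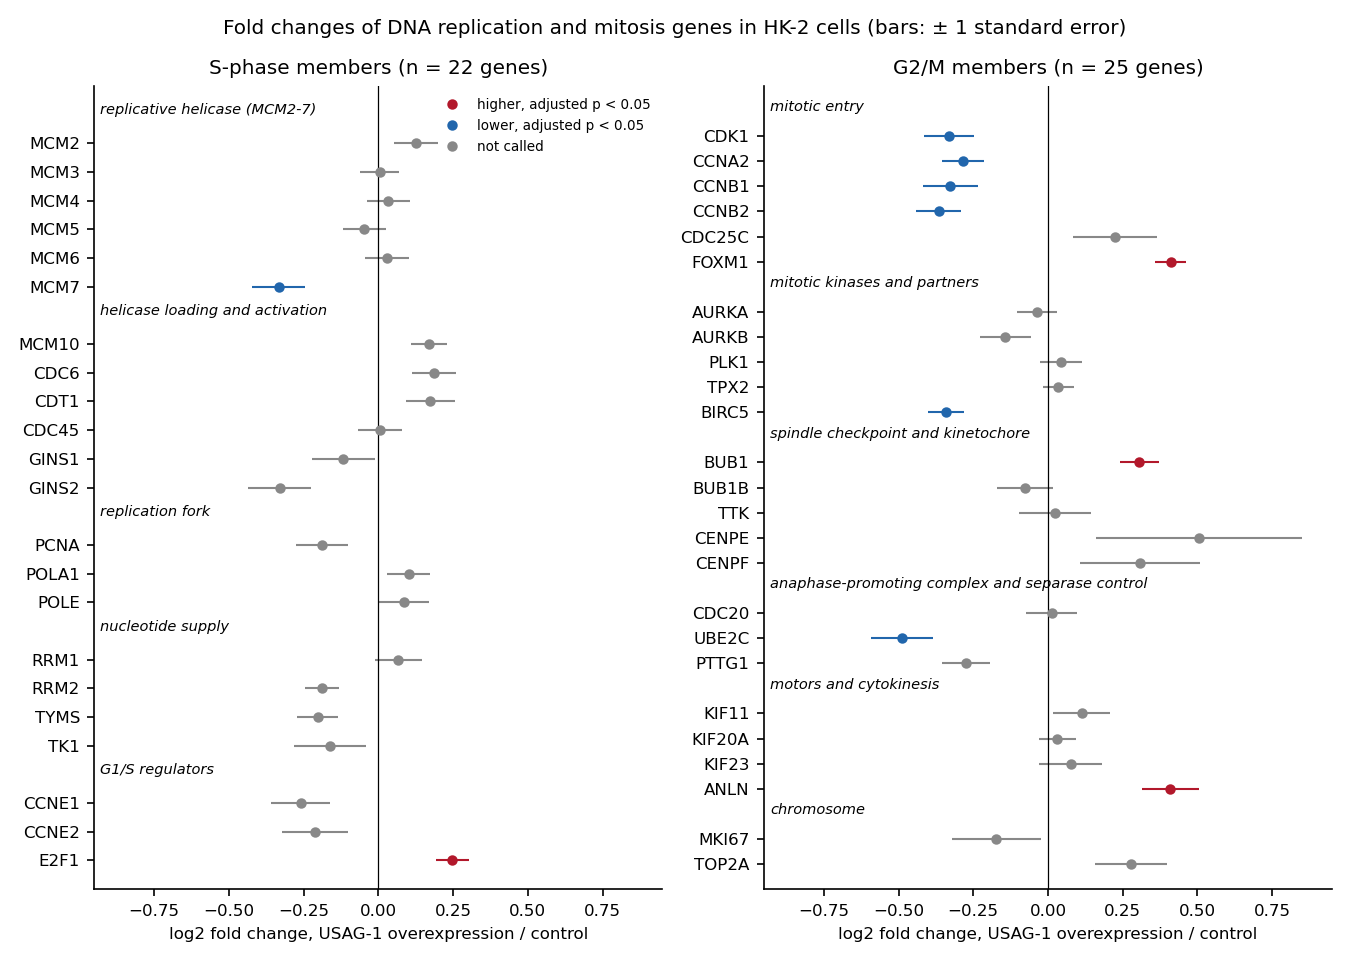
Log2 fold change of USAG-1 overexpression over control (horizontal axis) for the 22 S-phase genes (left) and 25 G2/M genes (right), grouped by role, with bars of 1 standard error from edgeR and n = 3 libraries a group. Red and blue points passed an adjusted p of 0.05 upward and downward. The 11 coloured points lie between -0.49 and 0.41, and 4 of the 6 genes of mitotic entry are blue while FOXM1 is red.

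Among the G1/S regulators, E2F1 was the S-phase gene with the smallest p. E2F1 is an activating E2F factor that drives entry into S phase. Its level was 49, 51.5 and 49.7 CPM in control replicates 1, 2 and 3 and 59.7, 58.9 and 59.7 CPM in the overexpressing replicates. All 3 overexpressing libraries were above all 3 control libraries, and the libraries within each group were close together. The log2 fold change was 0.25 (SE 0.06; edgeR quasi-likelihood test, Benjamini-Hochberg adjusted p = 0.0218), an increase of 18.7%. E2F1 spans 10.9 kb of chromosome 20, positions 33675477 to 33686385, on the minus strand (hg38). The cyclin E genes, whose products activate CDK2 at the start of S phase, had log2 fold changes of -0.26 for CCNE1 (SE 0.10) and -0.21 for CCNE2 (SE 0.11), neither of which passed. CCNE1 was at 13 to 13.8 CPM in control and 10.6 to 12 CPM in overexpressing libraries. The ranges of CCNE1 did not overlap, whereas those of CCNE2 did, since control replicate 3 (32.2 CPM) lay among the overexpressing libraries (29.0 to 35.4 CPM). CCNE2 overlaps INTS8 and NDUFAF6 on the other strand, with 170% and 45% as many counts, so that its value is uncertain.

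The MCM2 to MCM7 genes encode the 6 subunits of the helicase that unwinds DNA at the fork. MCM7 was lower in the overexpressing cells, at 647, 667 and 807 CPM in control replicates 1, 2 and 3 and 533, 575 and 575 CPM in the overexpressing replicates. Every overexpressing library was below every control library, and control replicate 3 was the highest of the 6. The log2 fold change was -0.33 (SE 0.09; edgeR quasi-likelihood test, Benjamini-Hochberg adjusted p = 0.0368), and without control replicate 3 it was -0.22 (SE 0.04), which also passed. MCM7 lies on the minus strand of chromosome 7, positions 100092728 to 100101940 (hg38), and overlaps AP4M1 on the other strand, which had 2.4% as many counts. The other 5 subunits, MCM2 to MCM6, had log2 fold changes between -0.05 and 0.13 and none passed. MCM5, for instance, was at 275, 275 and 317 CPM in control and 269, 291 and 280 CPM in overexpressing libraries, which overlap. The CPM of MCM7 divided by the geometric mean of the CPM of MCM2 to MCM6 was 2.35, 2.36 and 2.53 in control and 1.85, 1.87 and 1.91 in overexpressing libraries. This ratio is not corrected for transcript length, and its change between libraries alone can be read. It was lower in all 3 overexpressing libraries than in any control. Since MCM7 was itself lower without overlap and MCM2 to MCM6 changed little, this separation largely restates the MCM7 result. The ratio is a description with no test.

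No gene of helicase loading and activation passed the test. CDC6 and CDT1, which load the helicase onto origins, had log2 fold changes of 0.19 (SE 0.07) and 0.17 (SE 0.08), and MCM10, which helps to activate it, 0.17 (SE 0.06). CDC6 was at 92.6, 86.7 and 103 CPM in control replicates 1, 2 and 3 and 105, 106 and 110 CPM in overexpressing replicates. CDT1 was at 44.8, 46.5 and 53.7 CPM in control and 51.8, 55.1 and 56.7 CPM in overexpressing replicates. For both genes control replicate 3 was the highest control library, and for CDT1 it lay within the range of the overexpressing libraries. CDC45, a helicase cofactor, had a log2 fold change of 0.00 (SE 0.07). The GINS complex completes the active helicase, and its subunits GINS1 and GINS2 had log2 fold changes of -0.12 (SE 0.11) and -0.33 (SE 0.11). GINS2 was at 33.0, 38.8 and 44.0 CPM in control and 31.5, 29.1 and 31.6 CPM in overexpressing libraries, without overlap, and did not pass (edgeR quasi-likelihood test, Benjamini-Hochberg adjusted p = 0.0704). It overlaps GSE1 on the other strand, whose counts were 83.2% of those of GINS2, and whether the authors' counting used strand is not given in the sources used here.

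At the replication fork, PCNA, the sliding clamp, was at 312, 322 and 388 CPM in control and 286, 312 and 298 CPM in overexpressing libraries, and the groups met at 312 CPM. Its log2 fold change was -0.19 (SE 0.09). POLA1 and POLE, catalytic subunits of the priming and leading-strand polymerases, had log2 fold changes of 0.10 (SE 0.07) and 0.09 (SE 0.08). None of these 3 genes passed. Among the enzymes of nucleotide supply, the ribonucleotide reductase subunit RRM2 came nearest to the threshold, at 242, 247 and 267 CPM in control and 220, 223 and 219 CPM in overexpressing libraries. The groups did not overlap, and the log2 fold change was -0.19 (SE 0.06; edgeR quasi-likelihood test, Benjamini-Hochberg adjusted p = 0.0576). TYMS (thymidylate synthase) and TK1 (thymidine kinase) had log2 fold changes of -0.20 (SE 0.07) and -0.16 (SE 0.12), and RRM1, the other reductase subunit, 0.07 (SE 0.08). TK1 was at 264 CPM in control replicate 3 and at 182 to 206 CPM in the other 5 libraries.

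The calls among the S-phase genes rested on which libraries were used. Without control replicate 3, 10 of the 22 passed, where 27% of all genes tested did. MCM2, MCM4, CDC6, CDT1, RRM1 and E2F1 were then higher and MCM7, RRM2, TYMS and CCNE2 lower, with the log2 fold change of E2F1 at 0.25 (SE 0.05) and of CDT1 at 0.26 (SE 0.06). None of the 22 passed without control replicate 2 or without any single overexpressing replicate, where 8.74% (control replicate 2) and 6.92%, 5.98% and 7.09% (overexpressing replicates 1, 2 and 3) of all genes did. Without control replicate 1, 2 passed, both downward, where 10.2% of all genes did, and E2F1 was not among them. Over these and the other settings tried, 16 in all, the log2 fold change of E2F1 lay between 0.23 and 0.29 and that of MCM7 between -0.39 and -0.22.

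**Figure D2:**
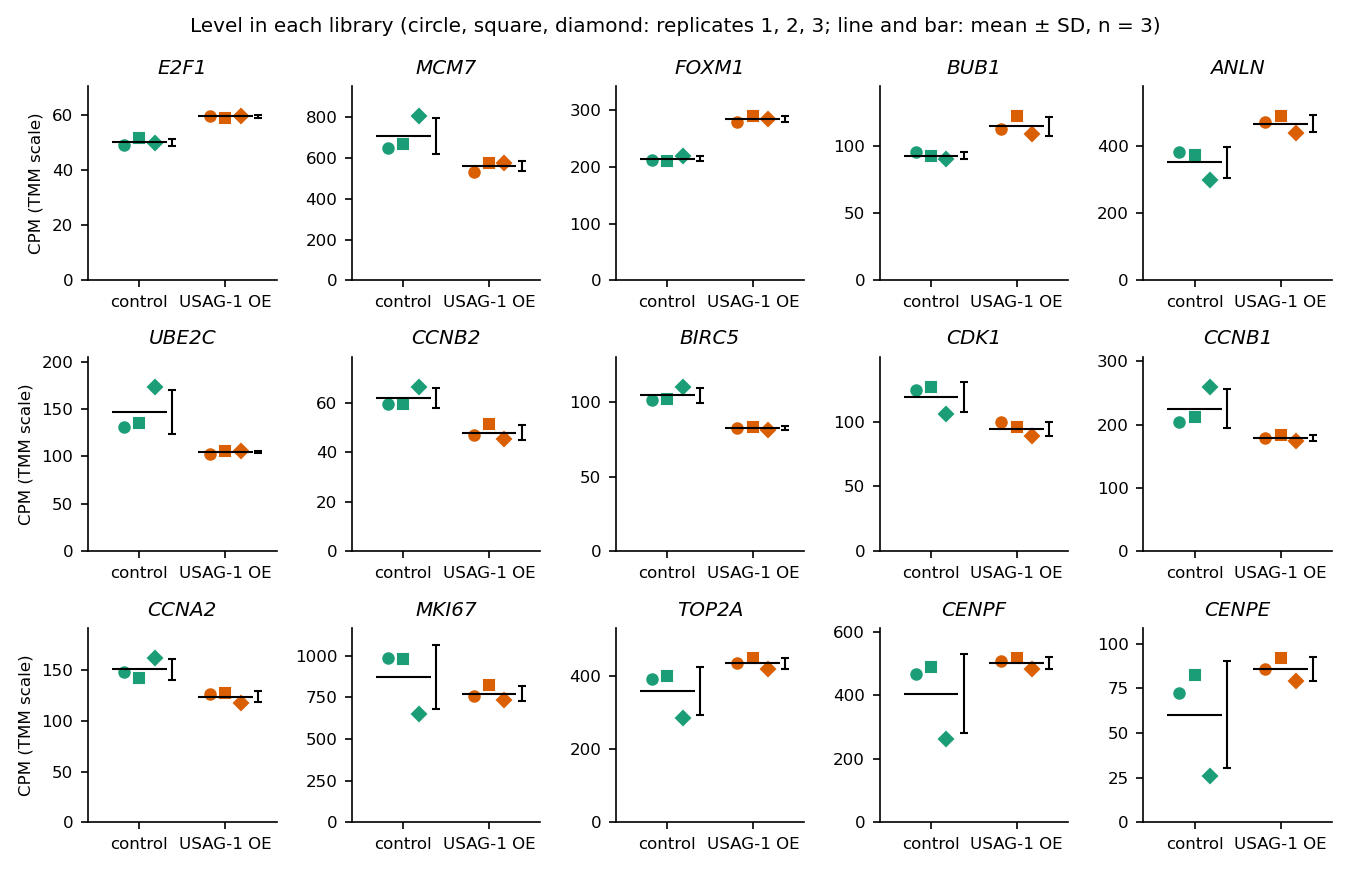
CPM on the TMM scale (vertical axis, starting at 0) in each of the 6 libraries for the 11 genes that passed the test and for MKI67, TOP2A, CENPF and CENPE. Circles, squares and diamonds are replicates 1, 2 and 3, and the line and bar are the mean and SD (n = 3). The groups do not overlap for the first 11 genes, which were picked because they passed, nor for TOP2A, beside 37.6% of all genes tested. Control replicate 3 lies far below the other controls for the last 4, at 26.2 CPM against 72.5 and 82.5 CPM for CENPE.

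The genes of mitotic entry held 5 of the 9 G2/M calls, with 5 of 6 past the threshold beside 15.9% of all genes tested. FOXM1, the forkhead factor that activates G2 and mitotic genes, was higher in the overexpressing cells and had the smallest p of all 47 genes. It was at 212, 210 and 219 CPM in control replicates 1, 2 and 3 and 279, 290 and 285 CPM in overexpressing replicates. The groups were well apart and control replicate 3 was close to the other controls. The log2 fold change was 0.41 (SE 0.05; edgeR quasi-likelihood test, Benjamini-Hochberg adjusted p = 0.00201), an increase of 32.9%, and it passed under all 16 other settings, between 0.40 and 0.43. FOXM1 lies on the minus strand of chromosome 12, positions 2857680 to 2877174 (hg38). It overlaps RHNO1 and ITFG2 on the other strand, with 19.2% and 11.7% as many counts.

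The cyclins of G2 and their kinase were lower, in the opposite direction to FOXM1. CCNB2, a B-type cyclin, was at 59.7, 59.6 and 66.6 CPM in control and 47.2, 51.6 and 45.5 CPM in overexpressing libraries, with no overlap. Its log2 fold change was -0.37 (SE 0.08; edgeR quasi-likelihood test, Benjamini-Hochberg adjusted p = 0.0153). CCNB2 lies on chromosome 15, positions 59105126 to 59125045 (hg38), and its call was lost without overexpressing replicate 1 or 3.

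CDK1, the kinase that cyclin B activates to start mitosis, was at 124, 127 and 106 CPM in control and 99.3, 95.7 and 88.7 CPM in overexpressing libraries (log2 fold change -0.33, SE 0.08; edgeR quasi-likelihood test, Benjamini-Hochberg adjusted p = 0.0329). Control replicate 3 was here the lowest control, yet still above every overexpressing library. CCNB1 was at 204, 211 and 260 CPM against 179, 184 and 175 CPM (log2 fold change -0.33, SE 0.09; edgeR quasi-likelihood test, Benjamini-Hochberg adjusted p = 0.0462). CCNA2, the cyclin of S phase and G2, was at 148, 142 and 162 CPM against 126, 128 and 117 CPM (log2 fold change -0.28, SE 0.07; edgeR quasi-likelihood test, Benjamini-Hochberg adjusted p = 0.0282). For both cyclins control replicate 3 was the highest library, and all 3 overexpressing libraries lay below all controls. CCNA2 overlaps EXOSC9 on the other strand, with 22.1% as many counts. These 3 calls were the least firm: each was lost without any one of the overexpressing replicates, that of CDK1 also without control replicate 1 or 2, that of CCNB1 also without control replicate 2 and that of CCNA2 also without control replicate 1. All 3 passed without control replicate 3, at -0.40 (SE 0.05) for CDK1, -0.21 (SE 0.04) for CCNB1 and -0.22 (SE 0.05) for CCNA2.

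CDC25C, the phosphatase that activates CDK1, was the 1 gene of mitotic entry that did not pass (log2 fold change 0.23, SE 0.14), at 10.1, 8.81 and 12.4 CPM in control and 12.6, 11.6 and 12.4 CPM in overexpressing libraries. It was higher without control replicate 3, at 0.38 (SE 0.12). The gene FAM53C overlaps it on the other strand with 544% as many counts, so that the value of CDC25C is uncertain.

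Of the mitotic kinases and their partners, BIRC5 was lower and the other 4 did not pass. BIRC5 encodes survivin, a subunit of the chromosomal passenger complex that also inhibits apoptosis. It was at 102, 102 and 110 CPM in control replicates 1, 2 and 3 and 82.8, 83.5 and 81.3 CPM in overexpressing replicates, and the 3 overexpressing libraries were close together and below all controls. It had a log2 fold change of -0.34 (SE 0.06; edgeR quasi-likelihood test, Benjamini-Hochberg adjusted p = 0.00739), and the gene passed under all 16 other settings, between -0.36 and -0.29. BIRC5 lies on chromosome 17, positions 78214186 to 78225636 (hg38). AURKB, the kinase of the same complex, had a log2 fold change of -0.14 (SE 0.08). AURKA, PLK1 and the AURKA activator TPX2 had log2 fold changes between -0.04 and 0.04, with standard errors of 0.07, 0.07 and 0.05.

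FOXM1 was set beside 4 of the genes it is known to activate. The CPM of FOXM1 divided by the geometric mean of the CPM of CCNB1, CCNB2, CDK1 and BIRC5 was 1.9, 1.86 and 1.84 in control and 3.05, 3.10 and 3.27 in overexpressing libraries. Control replicate 3 had the lowest ratio of the 6 libraries, and all overexpressing libraries were above all controls. The 4 genes in the denominator were picked after their values had been seen, because they were lower, and the ratio is a description with no test. The separation of the groups in this ratio followed from that choice and is no result about the targets of FOXM1. Known targets of FOXM1 among the members also include CENPF, CDC25C and PLK1. These had log2 fold changes of 0.31, 0.23 and 0.04, none of which passed. That of CENPF was 0.08 without control replicate 3, and that of CDC25C is uncertain because FAM53C overlaps it. These genes are no full list of the targets.

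At the anaphase-promoting complex, which marks cyclin B and securin for destruction, UBE2C was lower and had the largest change of the 11 genes that passed. It encodes the ubiquitin-conjugating enzyme of the complex, and was at 131, 136 and 174 CPM in control and 103, 105 and 106 CPM in overexpressing libraries. Control replicate 3 was far above the other controls, and all controls were above all overexpressing libraries. The log2 fold change was -0.49 (SE 0.10; edgeR quasi-likelihood test, Benjamini-Hochberg adjusted p = 0.0166) and fell in size to -0.35 (SE 0.04) without control replicate 3. FOXM1 (0.43) and CDK1 (-0.40) then had larger changes, so that the rank of UBE2C rested on control replicate 3. The call of UBE2C was lost without any one of the overexpressing replicates. UBE2C spans 4.38 kb of chromosome 20, positions 45812576 to 45816957 (hg38). PTTG1 (securin) was at 62.2, 61.7 and 71.1 CPM against 57.7, 52.0 and 51.5 CPM, without overlap, and just missed the threshold (log2 fold change -0.27, SE 0.08; edgeR quasi-likelihood test, Benjamini-Hochberg adjusted p = 0.0527). CDC20, the activator of the complex, had a log2 fold change of 0.01 (SE 0.09).

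Of the spindle checkpoint and kinetochore genes, BUB1 was higher and 4 did not pass. BUB1, a checkpoint kinase at the kinetochore, was at 95.7, 93.1 and 90.5 CPM in control and 113, 123 and 109 CPM in overexpressing libraries, with no overlap. Its log2 fold change was 0.31 (SE 0.06; edgeR quasi-likelihood test, Benjamini-Hochberg adjusted p = 0.0164), and the call was lost without control replicate 2 or overexpressing replicate 1 or 2. It lies on the minus strand of chromosome 2, positions 110637528 to 110678063 (hg38). Its paralog BUB1B (BUBR1), a part of the mitotic checkpoint complex, was at 105, 105 and 83.4 CPM in control and 93.9, 93.3 and 91.5 CPM in overexpressing libraries. Here control replicate 3 was the lowest of the 6 libraries and the other controls were the highest, and the log2 fold change was -0.08 (SE 0.09) with it and -0.18 (SE 0.04), past the threshold, without it. The checkpoint kinase TTK had a log2 fold change of 0.02 (SE 0.12).

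CENPE and CENPF, the kinetochore motor and a large kinetochore protein, had the largest standard errors of the 47 genes. CENPE was at 72.5, 82.5 and 26.2 CPM in control replicates 1, 2 and 3 and 86.1, 92.2 and 79.0 CPM in overexpressing replicates. CENPF was at 465, 489 and 262 CPM in control and 507, 518 and 482 CPM in overexpressing replicates. Without the low control replicate 3, the other controls of both genes overlapped the range of the overexpressing libraries. Their log2 fold changes, 0.50 (SE 0.34) and 0.31 (SE 0.20), did not pass. They were 0.15 (SE 0.07) and 0.08 (SE 0.04) without control replicate 3 and did not pass either.

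Among the motors and cytokinesis genes, ANLN was higher. ANLN encodes anillin, a scaffold of the contractile ring, and was at 381, 375 and 299 CPM in control and 471, 491 and 440 CPM in overexpressing libraries. All overexpressing libraries were above all controls, and control replicate 3 was the lowest. It had a log2 fold change of 0.41 (SE 0.10; edgeR quasi-likelihood test, Benjamini-Hochberg adjusted p = 0.0248), and it was 0.31 (SE 0.04) and still past the threshold without control replicate 3, while the call was lost without any one of the overexpressing replicates. ANLN lies on chromosome 7, positions 36389821 to 36453791 (hg38), and overlaps KIAA0895 on the other strand, with 2.47% as many counts. The mitotic kinesins KIF11, KIF20A and KIF23 had log2 fold changes between 0.03 and 0.11, and none passed. KIF20A overlaps BRD8 and CDC23 on the other strand, with 44.4% and 40% as many counts, so that its value is uncertain.

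MKI67 and TOP2A, the common markers of dividing cells, did not pass with all 6 libraries. MKI67, whose product Ki-67 coats mitotic chromosomes, was at 988, 977 and 647 CPM in control replicates 1, 2 and 3 and 759, 825 and 734 CPM in overexpressing replicates. The overexpressing libraries lay between the first 2 controls and control replicate 3. Its log2 fold change was -0.17 (SE 0.15), and without control replicate 3 it was -0.34 (SE 0.04) and passed. TOP2A, the topoisomerase that untangles sister chromatids, was at 392, 401 and 284 CPM against 435, 450 and 420 CPM, without overlap. Its log2 fold change was 0.28 (SE 0.12), and without control replicate 3 it was 0.14 (SE 0.03) and passed in the upward direction. The 2 markers thus had opposite signs in both fits.

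Without control replicate 3, 14 of the 25 G2/M genes passed, 5 upward and 9 downward, where 27% of all genes tested did, 15.8% upward and 11.2% downward, and all 11 genes called with 6 libraries kept their call and direction. The added genes were CDC25C and TOP2A upward and MKI67, BUB1B and PTTG1 downward. Leaving out an overexpressing replicate left 2, 3 and 3 calls (replicates 1, 2 and 3), where 6.92%, 5.98% and 7.09% of all genes passed. Leaving out control replicate 1 or 2 left 7 and 6, where 10.2% and 8.74% of all genes passed. With DESeq2, 5 S-phase and 10 G2/M genes passed, where 20.7% of all genes did, and without a filter on low counts 1 and 7, where 6.26% did. None of the 11 genes changed sign under any of the 16 settings, 22 of the 47 never passed, and 14 passed under an alternative setting alone.

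**Figure D3:**
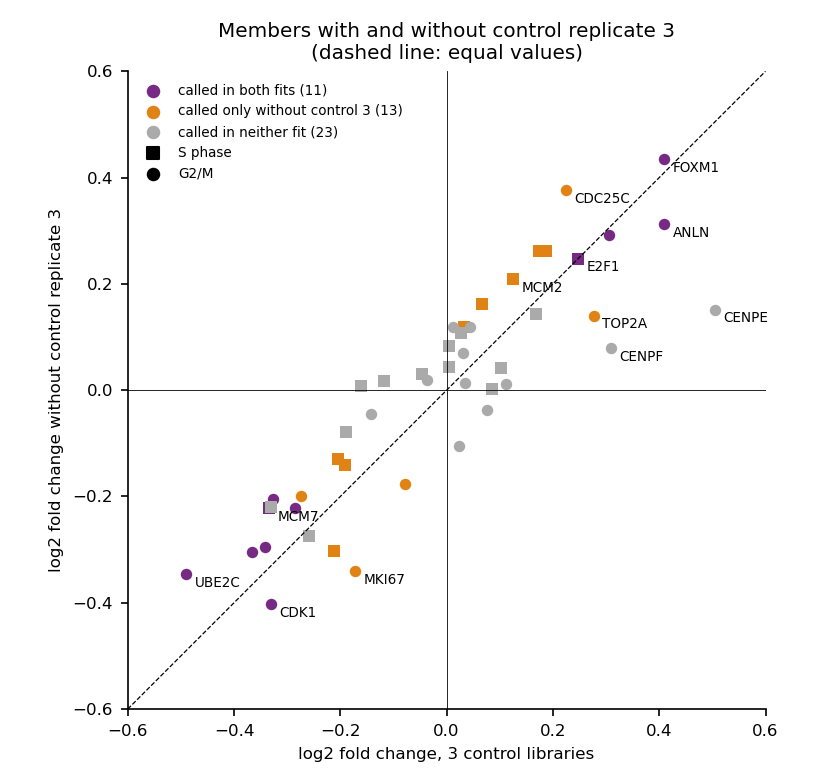
Log2 fold change of each of the 47 genes with all 6 libraries (horizontal axis) and without control replicate 3 (vertical axis); squares are S-phase and circles G2/M genes, and the dashed line marks equal values. The 11 genes called in both fits are purple and the 13 called without control replicate 3 alone are orange. CENPE moves from 0.50 to 0.15 and MKI67 from -0.17 to -0.34.

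The difference of control replicate 3 from the other controls leaned upward among the S-phase genes and went both ways among the G2/M genes. Of the 22 S-phase genes, 12 had their highest value of the 6 libraries in control replicate 3 and 3 their lowest. Of the 25 G2/M genes, 10 had their highest and 11 their lowest value there. The mean log2 CPM of the S-phase genes, each centred on its own mean over the 6 libraries, was 0.10 in control replicate 3 and below 0 in the other 5, the lowest at -0.04. That of the G2/M genes was -0.09 in control replicate 3 and between -0.03 and 0.04 in the others. The median of the G2/M genes in control replicate 3 was -0.003, within the range of the other 5 libraries (-0.02 to 0.06). CENPE (-1.37) and CENPF (-0.76) were the lowest there. The difference between the groups in the mean was -0.03 for the S-phase and 0.01 for the G2/M genes, below the pooled SD of 0.06 between libraries in both.

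**Figure D4:**
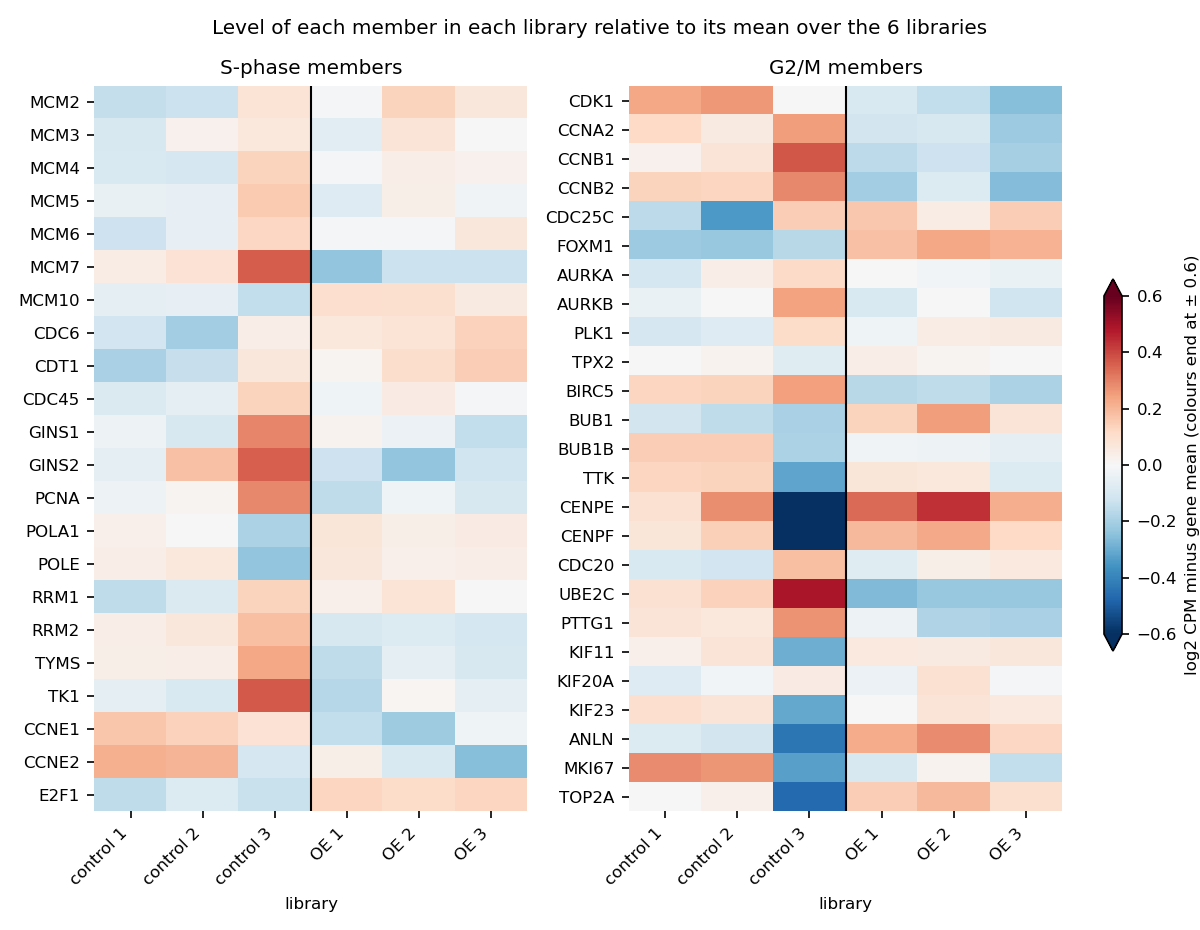
Log2 CPM of each gene in each library minus the gene's mean over the 6 libraries (colour, ending at -0.6 and 0.6), with libraries in columns and the 22 S-phase (left) and 25 G2/M genes (right) in rows. In the control replicate 3 column MCM7, TK1 and UBE2C are red and CENPE, CENPF, ANLN, MKI67 and TOP2A blue, while FOXM1 and E2F1 have the colour of the other controls.

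Among the G2/M genes this difference went with the genomic span of the gene, the distance from its start to its end including introns. The 9 G2/M genes that were more than 0.3 lower (log2) in control replicate 3 than in the mean of the other controls spanned 29.4 to 93.1 kb. UBE2C, which spans 4.38 kb, was 0.38 higher in it, but so was CDC25C, which spans 53.1 kb, by 0.40. Across the 25 genes, Spearman's rho between span and this difference was -0.70, across the 22 S-phase genes it was -0.33 and across all 18188 genes tested -0.13. These are correlations across genes of the same libraries, which are not independent, and are given as a description.

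The same held for the fold changes. The 6 G2/M genes that were lower spanned 4.38 to 19.9 kb (median 11.3 kb), and the 3 that were higher spanned 19.5 to 64.0 kb (median 40.5 kb). Spearman's rho between span and log2 fold change was 0.65 across the G2/M genes, 0.22 across the S-phase genes and 0.20 across all genes tested, and it was 0.40, 0.08 and 0.14 without control replicate 3. In a fit that removed the trend with span from each library, chosen after seeing the data, 4 S-phase genes passed (E2F1 and CDT1 upward, MCM7 and RRM2 downward, where 14.8% of all genes did) and 7 G2/M genes, with CCNA2 and CCNB1 no longer among them. What lies behind this relation was not tested.

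**Figure D5:**
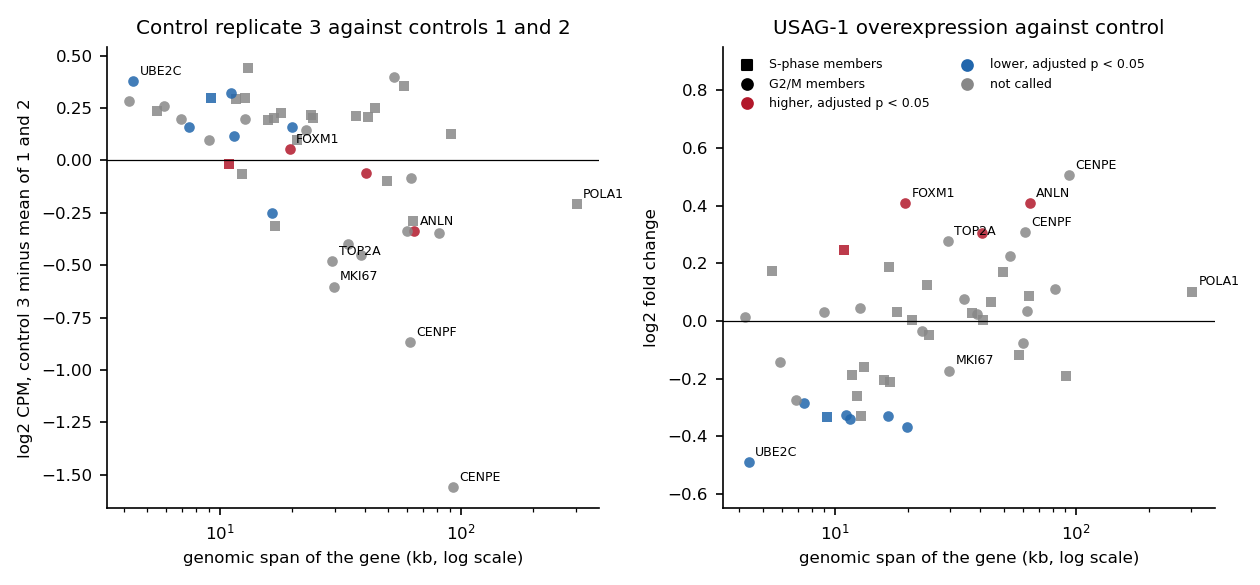
Genomic span of each gene in kb (horizontal log axis) against the log2 CPM of control replicate 3 minus the mean of control replicates 1 and 2 (left) and against the log2 fold change of overexpression over control (right). Squares are S-phase and circles G2/M genes, and red and blue points passed the test upward and downward. Among the circles, UBE2C lies at 0.38 and CENPE at -1.56 in the left panel, and at -0.49 and 0.50 in the right panel. The value of CENPE on the right has an SE of 0.34 and is 0.15 without control replicate 3.

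Further genes of the 2 phases were counted from wider lists. Of 54 other replication genes, 7 (13%) passed, 3 upward and 4 downward, beside 15.9% of all genes tested, with a median log2 fold change of -0.03. WDHD1, a fork protein, had a log2 fold change of 0.66 (SE 0.09; 34.0, 31.0 and 28.3 CPM in control and 52.5, 46.6 and 48.8 CPM in overexpressing libraries), and ORC3 of the origin recognition complex 0.36 (SE 0.07). RPA3, the smallest subunit of the single-strand binding protein, had a log2 fold change of -0.61 (SE 0.09; 26.1, 27.4 and 29.4 CPM against 18.2, 16.3 and 19.7 CPM), and overlaps UMAD1 on the other strand with 38.1% as many counts. The others were RFC1 upward and DUT, GINS3 and the CDT1 inhibitor GMNN downward. Without control replicate 3, 16 of the 54 (29.6%) passed, beside 27% of all genes. The count was 3, 3 and 4 without overexpressing replicate 1, 2 and 3, beside 6.92%, 5.98% and 7.09% of all genes. The call of ORC3 was lost without overexpressing replicate 1.

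Of 79 other mitosis genes, 10 (12.7%) passed, 4 upward and 6 downward, beside 15.9% of all genes tested, with a median log2 fold change of 0.00. HJURP, the chaperone that places CENP-A at centromeres, was at 149, 155 and 156 CPM in control and 112, 113 and 111 CPM in overexpressing libraries, a log2 fold change of -0.46 (SE 0.05; edgeR quasi-likelihood test, Benjamini-Hochberg adjusted p = 0.00146). The kinesin KIF22 was at 90.2, 89.4 and 90.8 CPM against 66.4, 67.4 and 63.7 CPM (log2 fold change -0.45, SE 0.05). CKS2, the small partner of CDK1, was at 131, 130 and 133 CPM against 104, 103 and 110 CPM (log2 fold change -0.32, SE 0.05). For these 3 genes control replicate 3 differed from the mean of the other controls by 0.02 to 0.03 on the log2 scale. The call of CKS2 was lost without overexpressing replicate 1 or 2. CENPW, KIFC1 and CDCA5 were also lower, and ZWILCH, MASTL, KIF18A and SMC2 higher, of which ZWILCH and MASTL share their position with genes on the other strand that have more counts. Without control replicate 3, 21 of the 79 (26.6%) passed, beside 27% of all genes. The count was 2, 2 and 5 without overexpressing replicate 1, 2 and 3, beside 6.92%, 5.98% and 7.09% of all genes.

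Of 35 genes of cell cycle entry and its brakes, 6 (17.1%) passed, 3 in each direction, beside 15.9% of all genes tested, with a median log2 fold change of 0.05. MYBL2, LIN54 and LIN9 were higher. MYBL2, which encodes B-MYB, was at 549, 550 and 667 CPM in control and 704, 752 and 719 CPM in overexpressing libraries, a log2 fold change of 0.30 (SE 0.08; edgeR quasi-likelihood test, Benjamini-Hochberg adjusted p = 0.0433). LIN54 and LIN9, subunits of MuvB, had log2 fold changes of 0.60 (SE 0.11) and 0.33 (SE 0.08). All 3 were higher in every overexpressing library than in any control. The calls of MYBL2 and LIN9 were lost without several single libraries: each of the overexpressing replicates and control replicate 1 for both, and control replicate 2 for MYBL2. LIN54 overlaps THAP9 on the other strand, with 14% as many counts.

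The CDK4 and CDK6 inhibitor gene CDKN2C was lower (46.2, 47.3 and 52.2 CPM against 34.4, 37.5 and 34.7 CPM; log2 fold change -0.45, SE 0.07), as were CCND2, at a mean of 3.34 and 1.81 CPM, and the repressor E2F7. CDKN1A, the p53 target that encodes p21, was at 31.2, 28.3 and 30.4 CPM against 37.4, 33.0 and 32.1 CPM, a log2 fold change of 0.19 (SE 0.08) that did not pass. CDKN2A was at 166, 165 and 242 CPM in control and 154, 168 and 156 CPM in overexpressing libraries, where control replicate 3 alone stood out (log2 fold change -0.26, SE 0.14). CCND1 (cyclin D1) had a log2 fold change of -0.02 (SE 0.06), whose sign turned without control replicate 3 or overexpressing replicate 2 and in the fit that removed the trend with span. RBL1 (p107) had 0.24 (SE 0.07). Leaving out control replicate 3, 13 of the 35 (37.1%) passed, beside 27% of all genes. The count was 2 without control replicate 1 (10.2% of all genes). It was also 2 without overexpressing replicate 1, 2 or 3 (6.92%, 5.98% and 7.09% of all genes).

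Of 55 replication-dependent histone genes in the table, 19 had enough counts to be tested and none passed edgeR's test. At an unadjusted p of 0.05, 2 passed, where 30.5% of all genes tested did. DESeq2 and limma-voom each called 1, where they called 20.7% and 15.9% of all genes. Most messengers of these genes carry no poly(A) tail. The labels describe selection of poly(A) RNA, whereas the series' own text names removal of ribosomal RNA, and the part of either in these low counts was not tested. Their summed level was 12.1, 14.6 and 25.9 CPM in control replicates 1, 2 and 3 and 11.2, 16.6 and 13.8 CPM in overexpressing replicates, highest in control replicate 3. H2AC20, with the smallest p, was at 0.814, 1.03 and 1.64 CPM against 0.109, 0.435 and 0.44 CPM.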

How the data were processed

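The authors deposited raw counts per gene for 6 libraries of poly(A) RNA, made with a strand-marking kit per the labels. The series' own text names removal of ribosomal RNA and another sequencer. The submitters' processing notes name cutadapt 1.9, FastQC and the build hg38; the aligner, counter and annotation are not given in the sources used here, and neither is whether counting used strand. The count columns were used as deposited, and coordinates are those of the table. Libraries held 41236194 to 48699471 counts. The deposited table is named for FPKM, but its columns hold whole counts.

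Genes passing edgeR's filterByExpr (18188 of 39234) were scaled by TMM and tested with edgeR 4.0.16 (R 4.3.3), glmQLFit and glmQLFTest, 3 libraries against 3 without covariates, two-sided, with Benjamini-Hochberg adjustment over all genes tested and a threshold of 0.05. "Passed", "higher" and "lower" refer to it. Alternatives were DESeq2 1.42.0, limma-voom 3.58.1, other scalings, other filters, the replicate number as a block, the mitochondrially encoded genes left out, each library left out in turn and, chosen after seeing the data, an offset for genomic span (a lowess trend with span fraction 0.3 in each library). The fits were tested on simulated data, where recovery was incomplete for changed genes with few counts. All simulated libraries had the same spread, none stood apart as control replicate 3 does, and none had a trend with span. How the fits perform under those conditions was not tested. Standard errors are the size of the log2 fold change over the square root of the F statistic.

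The members and gene lists were chosen with earlier results of these data known. Named were SOSTDC1, the members that passed with the smallest p (at most 6 a phase, filled to 4), the 3 smallest p of each wider list, and CDKN1A, CDKN2A, CCND1, MYBL2 and RBL1. CDK1, CCNA2, CCNB1, CENPE, CENPF, MKI67, TOP2A and the other members given by library were described after their values were seen. No human sequence or promoter was used here, so no sequence is shown.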

Additional observations from a re-analysis of the deposited data

How the results depend on the processing

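The number of S-phase genes called was 2 with edgeR and 5 with DESeq2, 1 without a filter on low counts and 4 with the offset for genomic span, and lay between 0 and 10 when a single library was left out. For the G2/M genes, 9 calls became 2 to 14 when a single library was left out, and the other settings gave 7 to 10. The 7 calls among other replication genes became 3 to 16 in the same way. Among other mitosis genes the 10 calls became 16 with DESeq2, 6 without the filter and 2 to 21 with a library left out, and among the genes of cell cycle entry and its brakes the 6 calls became 2 without the filter and 2 to 13 with a library left out. For histone genes, 0 calls became 1 with DESeq2 and 1 with limma-voom. Apart from the histone genes, the highest count of each list came without control replicate 3. The share of all genes tested that passed moved as well. It was 15.9% with edgeR, 20.7% with DESeq2, 15.9% with limma-voom, 6.26% without the filter and 14.8% with the offset for genomic span. With a single library left out it lay between 5.98% and 27%, the highest without control replicate 3. The cause of these differences was not tested.

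The replicate numbers carried no sign of pairing: deviations of same-numbered libraries from their group means had correlations of 0.07, -0.05 and 0.04. With the replicate number as a block, 2381 genes (13.1%) passed in place of 2884, with 2 S-phase and 7 G2/M genes (CCNA2 and CCNB1 were lost). Of the genes of cell cycle entry and brakes 3 passed in place of 6, and of the histone genes 1 in place of 0. The block together with the span offset gave 3 for entry and brakes, where 11.4% of all genes passed. Over all genes, 3761 passed with DESeq2, 2034 without the filter, 5091 without control replicate 3, and 1137 to 1917 without another single library. The log2 fold change of CCND1, -0.02, turned to 0.0104 with the span offset, 0.0116 with the span offset and the block, and ranged from -0.0696 to 0.0313 with a library left out (0.0313 without control replicate 3 and 0.00267 without overexpressing replicate 2). The medians of the S-phase and G2/M genes moved by less than the spread between libraries under every setting. That of the other replication genes, -0.03, moved by more under several settings, between -0.06 without control replicate 2 and 0.004 without control replicate 3. That of the entry and brake genes went from 0.05 to 0.02 with the span offset, with or without the block, and without overexpressing replicate 2.

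Limits: each group has 3 libraries, the calls among the members are of small changes, and of the 47 members FOXM1 and BIRC5 alone passed under all settings. Protein levels, phase fractions and division rates were not measured. Reads of overlapping genes could not be told apart.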

Other observations

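Beside the T and NK cell markers, markers of 5 other cell types were summed in each library. Of 7 B cell markers 1 was higher, of 8 myeloid markers 2 were lower, and of 3 fibroblast markers tested 1 was higher, beside 8.95% of all genes tested higher and 6.91% lower. None of 6 platelet and erythroid markers and none of 2 endothelial markers tested passed edgeR's test, and none of them had an unadjusted p under 0.05 either. The summed platelet and erythroid level ranged from 8.18 to 110 CPM among control libraries and from 8.74 to 77.3 CPM among overexpressing libraries.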
